A study of Homo sapiens with 30 samples.

Results

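The TRIM family, the tripartite motif ubiquitin ligases, was followed at the RNA level through up to 28 days of interferon-γ (IFN-γ) in the glioblastoma cell lines U87 and U251. Members were all gene symbols made of TRIM and a number whose mean level was at least 0.5 TPM (length-scaled transcript abundance, with the same total in every library) over the libraries of at least 1 line. Of 67 such symbols among the 61471 genes listed, 48 met this limit. In each line 47 members were tested, and 46 were tested in both: TRIM55 only in U87 and TRIM74 only in U251. The other 19 symbols stayed below the limit, and TRIM48 and TRIM77 were listed at 0 in every library used. Just outside the limit lay TRIM17, with line means of 0.487 TPM in U87 and 0.434 TPM in U251, and TRIM72, with 0.398 and 0.479 TPM. Just inside it lay TRIM54, at 0.962 TPM in U251 and 3.07 TPM in U87, and TRIM55, at 1.54 TPM in U87.

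Both lines are labelled wild type (WT). The Untreated group received no IFN-γ, the D3, D14 and D28 groups received it without a break for 3, 14 and 28 days, and the D28WO group received it for 14 days and was then kept for 14 days without it. The sources give the IFN-γ dose in different units, so no dose is stated here. Each group has 3 libraries. In U87 only 2 libraries could be used at D3 and 2 at D14, because 2 columns of the table carry the same name, so 13 libraries of U87 and 15 of U251 were analysed. The study describes the replicates as separate culture preparations and states that the lines, which are on a register of commonly misidentified lines, were not authenticated by short tandem repeat typing. The labels place the collection of the Untreated cells on day 3 while the study's methods place it before exposure, and no Untreated group was collected at the later days, so time in culture and IFN-γ cannot be told apart. The p-values measure the spread between these preparations. Per the study's methods, cultures were divided at day 14 between continued exposure and withdrawal, so D28 and D28WO libraries can share a preparation. The test of D28WO against D28 treated them as independent.

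The IFN-γ response itself was read first, from IRF1, a transcription factor that IFN-γ induces. In U87, IRF1 was 133 ± 2.78 TPM in Untreated cells (SD, n = 3), 448 ± 3.34 TPM at D3 (n = 2), 122 ± 17.1 TPM at D14 (n = 2), 479.7 ± 51.7 TPM at D28 (n = 3) and 509.6 ± 46.5 TPM at D28WO (n = 3). The single libraries were at 136, 130.1 and 134 TPM untreated and 134 and 109.8 TPM at D14. The U87 libraries labelled D14 thus overlapped Untreated, while in U251 IRF1 was 141 ± 3.9 TPM untreated and 300.3 ± 18.4 TPM at D14 (n = 3 each), a rise of 1.08 ± 0.11 (adjusted p = 1.24e-05). When the D14 libraries were left out of the fit, a choice made after seeing the data, the numbers of TRIM members past the threshold at D3, D28 and D28WO against Untreated were the same as with them, 5, 5 and 11 in U87 and 12, 9 and 7 in U251.

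Glial and glioma markers were read next. VIM, CD44 and EGFR had group means of at least 58.9 TPM in both lines. GFAP and SOX2 were high in U251, with Untreated means of 1258 ± 46.3 TPM and 159 ± 1.2 TPM (SD, n = 3), and low in U87, with 4.84 ± 2.32 TPM and 0.219 ± 0.207 TPM. Of the leukocyte markers PTPRC, CD3E, CD14 and AIF1, the highest group mean in U87 was 0.828 TPM, for PTPRC, and in U251 it was 4.51 ± 1.32 TPM (SD, n = 3), for CD14 at D3. AIF1 was listed at 0 in every U87 library. Some markers differed between groups. In U251, the 8 glial markers together held 3800 to 3879 TPM in Untreated libraries, 1574 to 1900 TPM at D3, 2653 to 3050 TPM at D14, 1696 to 1908 TPM at D28 and 2196 to 2264 TPM at D28WO. At D3 GFAP, S100B and NES fell, with log2 fold changes of -1.88 ± 0.09 (adjusted p = 2.03e-09), -2.10 ± 0.15 (adjusted p = 9.69e-08) and -1.38 ± 0.07 (adjusted p = 2.29e-09), and the GFAP mean was 243 ± 18.2 TPM at D28 and 573 ± 2.42 TPM at D28WO (SD, n = 3). VIM and CD44 were lower there short of the fold limit (-0.83 and -0.93). The keratin KRT8 and the endothelial cadherin CDH5 fell too, with -1.08 ± 0.16 (adjusted p = 0.000103) and -4.19 ± 0.32 (adjusted p = 1.84e-07). The 3 endothelial markers together held 26.6 to 38.4 TPM in Untreated U251 libraries, 2.45 to 3.46 TPM at D3, 9.79 to 21.4 TPM at D14, 4.16 to 4.82 TPM at D28 and 4.31 to 8.8 TPM at D28WO. In U87 the glial sum was 2007 to 2227 TPM in Untreated libraries and 1587 to 1743 TPM at D28WO, the group with the most TRIM members past the threshold. There OLIG2, GFAP and the synaptic gene SYT1 rose, with 1.78 ± 0.37 (adjusted p = 0.00217), 1.45 ± 0.37 (adjusted p = 0.00801) and 1.12 ± 0.20 (adjusted p = 0.00108), and the epithelial marker EPCAM fell, with -1.64 ± 0.34 (adjusted p = 0.00255). What part these shifts have in the TRIM values was not tested. The RNA is from whole cultures, so more RNA per cell and more cells with the RNA cannot be told apart.

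Most TRIM proteins carry a RING domain, which hands ubiquitin from an E2 enzyme to a target, then B-box zinc fingers and a coiled coil through which they assemble. The region after the coiled coil differs between members and binds the target: a SPRY domain in many antiviral members, NHL repeats, or a PHD finger and bromodomain in nuclear members. Interferons induce a subset of the family. Within it, TRIM5 and TRIM22 act against retroviruses, TRIM21 binds antibody on incoming virus, TRIM25 and TRIM56 act on innate sensing pathways, and TRIM14 and TRIM31 act at the mitochondrial adaptor MAVS. IFN-γ responses run through GAS elements and through IRF1, which binds elements of the ISRE type.

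Promoter sequences are shown for TRIM69, TRIM21 and TRIM38, which had some of the largest rises at D3 among members with a RefSeq promoter. ISRE-type letters, or their lack, can be read in these sequences directly. Each runs 5′ to 3′ along the gene, from 250 bases before to 50 bases after the transcript start that the RefSeq table uses, on GRCh38.p14. For TRIM69, and for TRIM5 and TRIM34 below, that start lies inside the longer span that GENCODE gives the gene. Capitals mark the ISRE pattern TTTCNNTTTC or its reverse complement. TRIM69 (chr15:44736278-44736577, plus strand) has 1 match, TRIM21 (chr11:4393653-4393952, minus strand) has 2 that overlap, and TRIM38 (chr6:25962552-25962851, plus strand) has none in this window.
TRIM69: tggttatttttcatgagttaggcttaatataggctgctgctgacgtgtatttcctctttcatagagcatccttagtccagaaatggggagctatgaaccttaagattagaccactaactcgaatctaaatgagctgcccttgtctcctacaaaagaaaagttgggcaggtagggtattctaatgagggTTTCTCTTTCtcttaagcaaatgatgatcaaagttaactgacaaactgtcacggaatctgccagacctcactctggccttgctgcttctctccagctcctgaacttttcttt
TRIM21: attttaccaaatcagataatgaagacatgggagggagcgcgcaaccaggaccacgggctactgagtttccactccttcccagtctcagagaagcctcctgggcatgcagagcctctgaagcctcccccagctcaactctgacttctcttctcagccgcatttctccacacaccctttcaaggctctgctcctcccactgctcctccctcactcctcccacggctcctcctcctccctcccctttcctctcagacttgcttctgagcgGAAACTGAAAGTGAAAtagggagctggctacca
TRIM38: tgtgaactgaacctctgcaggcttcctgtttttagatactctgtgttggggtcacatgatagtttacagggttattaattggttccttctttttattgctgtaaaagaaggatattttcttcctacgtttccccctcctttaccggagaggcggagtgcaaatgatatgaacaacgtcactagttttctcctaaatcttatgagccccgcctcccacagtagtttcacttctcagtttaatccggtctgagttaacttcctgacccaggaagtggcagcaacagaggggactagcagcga

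Windows of 30 bases around a match are given for another 4 members of the interferon-induced list, to show the letters beside the pattern, which is common to them because they were chosen for it. They lie at chr11:5685082-5685111, minus strand (TRIM5), chr9:98119229-98119258, minus strand (TRIM14), chr6:30213581-30213610, minus strand (TRIM26, the upstream of 2 overlapping matches) and chr11:5624901-5624930, plus strand (TRIM34).
TRIM5: atagtttatcTTTCACTTTCctgccctgag
TRIM14: acggccgaggTTTCGGTTTCccttgggagc
TRIM26: tcccgcctgaTTTCAGTTTCcatttcgctg
TRIM34: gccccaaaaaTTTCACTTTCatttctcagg

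Of the 48 members, 36 had an entry in the promoter table and 9 of these (25%) held the ISRE pattern on either strand: TRIM2, TRIM5, TRIM14, TRIM16, TRIM21, TRIM26, TRIM34, TRIM44 and TRIM69. Of all 27305 promoters, 996 (3.65%) held it. The GAS pattern TTCNNNGAA was in 3 member promoters (8.33%), those of TRIM2, TRIM3 and TRIM16, against 7.88% of all promoters. A match describes letters only. TRIM5, TRIM16, TRIM26 and TRIM44 hold the ISRE pattern and passed the threshold in no comparison, while TRIM38, which rose in all 4 comparisons of U251 with Untreated, has no match in this window. TRIM74 and TRIM36, which rose by 1.89 and 1.59 at D3 in U251, hold neither pattern in this window. Their promoters are not printed.

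Values were compared as log2(TPM + 1) with limma, with all groups of a line in 1 fit and adjustment over all genes tested. To be past the threshold a gene needed both a log2 fold change beyond 1 in either direction and an adjusted p below 0.05. Fold changes below are on the log2(TPM + 1) scale, which understates those of low genes. A value after ± beside a fold change is its standard error, and the adjusted p is limma's with Benjamini-Hochberg adjustment. Some fold changes are printed without them. The summed level of the 48 members was 2079.5 ± 101 TPM in Untreated U87 cells (SD, n = 3), 2518 ± 89.9 TPM at D3 (n = 2), 2193 ± 47.3 TPM at D14 (n = 2), 2549 ± 4.25 TPM at D28 (n = 3) and 2639 ± 35.8 TPM at D28WO (n = 3). In U251 the sums were 2268.5 ± 66.6 TPM in Untreated cells, 2875 ± 67.9 TPM at D3, 2561 ± 33.5 TPM at D14, 2731 ± 51.5 TPM at D28 and 2896 ± 66.5 TPM at D28WO (n = 3 each). The libraries of D3, D28 and D28WO lay above all Untreated libraries in both lines, and in U87 the D14 libraries, at 2159 and 2226 TPM, overlapped the Untreated range of 2015 to 2196 TPM.

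**Figure D1:**
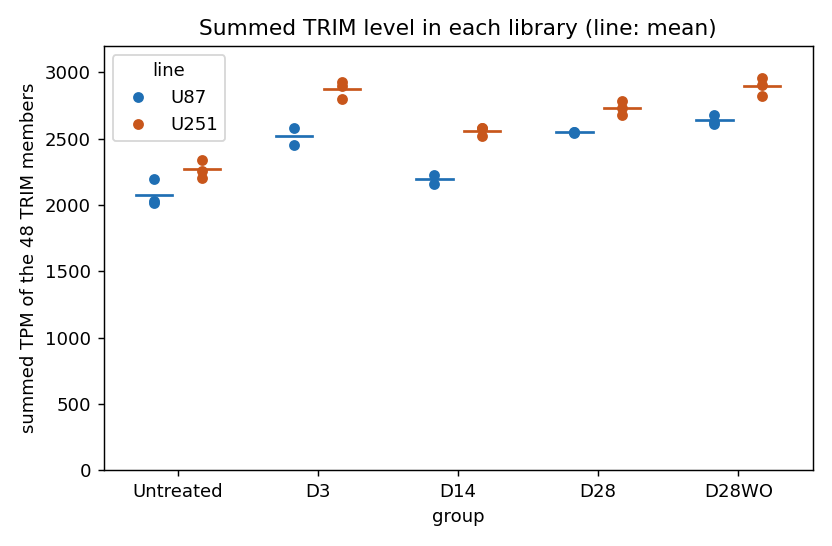
Summed TPM of the 48 TRIM members (vertical axis, from 0) in each library of the 5 groups (horizontal axis), U87 in blue and U251 in orange, with a short line at each group mean. The U87 D14 libraries sit beside the Untreated ones, and the D3, D28 and D28WO libraries sit above them in both lines.

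In U87, 5 of 47 members (10.6%) rose past the threshold at D3, against 5.85% of the 22918 genes tested, and none fell, against 0.384%. At D14 only TRIM52 did (2.13% of members, against 1.89% of genes higher and 0.209% lower). At D28 again 5 members rose (10.6%, against 6.77%) and none fell (against 0.611%). At D28WO 11 members rose (23.4%, against 12.8%) and none fell (against 2.12%). With the adjusted p limit alone, 14, 2, 17 and 24 members were higher at D3, D14, D28 and D28WO, which is 29.8%, 4.26%, 36.2% and 51.1% of the members against 12.4%, 4.14%, 17.2% and 28.6% of all genes. The same limit gave 0, 0, 1 and 1 members lower, against 4.28%, 1.02%, 6.55% and 13.4% of genes, and the 1 member was TRIM28 both times. These counts depended on the scaling, with 10, 2, 10 and 18 members higher and 0, 0, 0 and 7 lower after quantile normalization, and 11, 2, 12 and 19 higher and 0, 0, 1 and 6 lower by size factors. Median fold changes over the members were 0.32, 0.17, 0.34 and 0.38, beside 0.20, 0.15, 0.19 and 0.25 over all genes, so the members' medians exceeded those of all genes by 0.13, 0.03, 0.15 and 0.13. Leaving out 1 library gave member medians of 0.28 to 0.44, 0.09 to 0.26, 0.26 to 0.43 and 0.32 to 0.44, the D14 ends being those without Untreated replicate 3 and without Untreated replicate 2. Quantile normalization took the median over all genes at D3 to -0.02. After it the numbers past the threshold were 1, 0, 2 and 4 (TRIM69 at D3, TRIM21 and TRIM69 at D28, and TRIM25, TRIM56, TRIM69 and TRIM73 at D28WO), and the members' medians were 0.07, -0.01, 0.11 and 0.11. With median-ratio size factors TRIM7 and TRIM69 passed at D3, none at D14, TRIM7, TRIM21 and TRIM69 at D28, and at D28WO all but TRIM21, TRIM34 and TRIM52. Shares of all genes were not computed under these 2 scalings in either line, so the counts under them have no share beside them.

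In U251, 11 of 47 members (23.4%) rose at D3, against 9.72% of the 23667 genes tested, and 1 fell (2.13%), against 4.55%. At D14 the numbers were 4 higher (8.51%, against 4.72%) and none lower (against 1.04%). At D28, 8 rose (17%, against 11.9%) and 1 fell (against 3.35%). At D28WO, 7 rose (14.9%, against 4.07%) and none fell (against 3.38%). The adjusted p limit alone gave 19, 12, 23 and 18 members higher, against 24.9%, 13.8%, 25.9% and 14.3% of genes, and 5, 3, 7 and 5 lower, against 16%, 7.31%, 14.7% and 13.4%. Median fold changes of the members were 0.36, 0.26, 0.48 and 0.21, beside 0.13, 0.10, 0.16 and 0.02 over all genes, and ran from 0.29 to 0.42, 0.17 to 0.31, 0.39 to 0.53 and 0.16 to 0.22 with 1 library left out. Quantile normalization took the members' medians to 0.20, 0.15, 0.23 and 0.17. The rises at D3 went from 11 to 6, without TRIM3, TRIM7, TRIM14, TRIM29 and TRIM74, and 7 were left at D28WO.

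**Figure D2:**
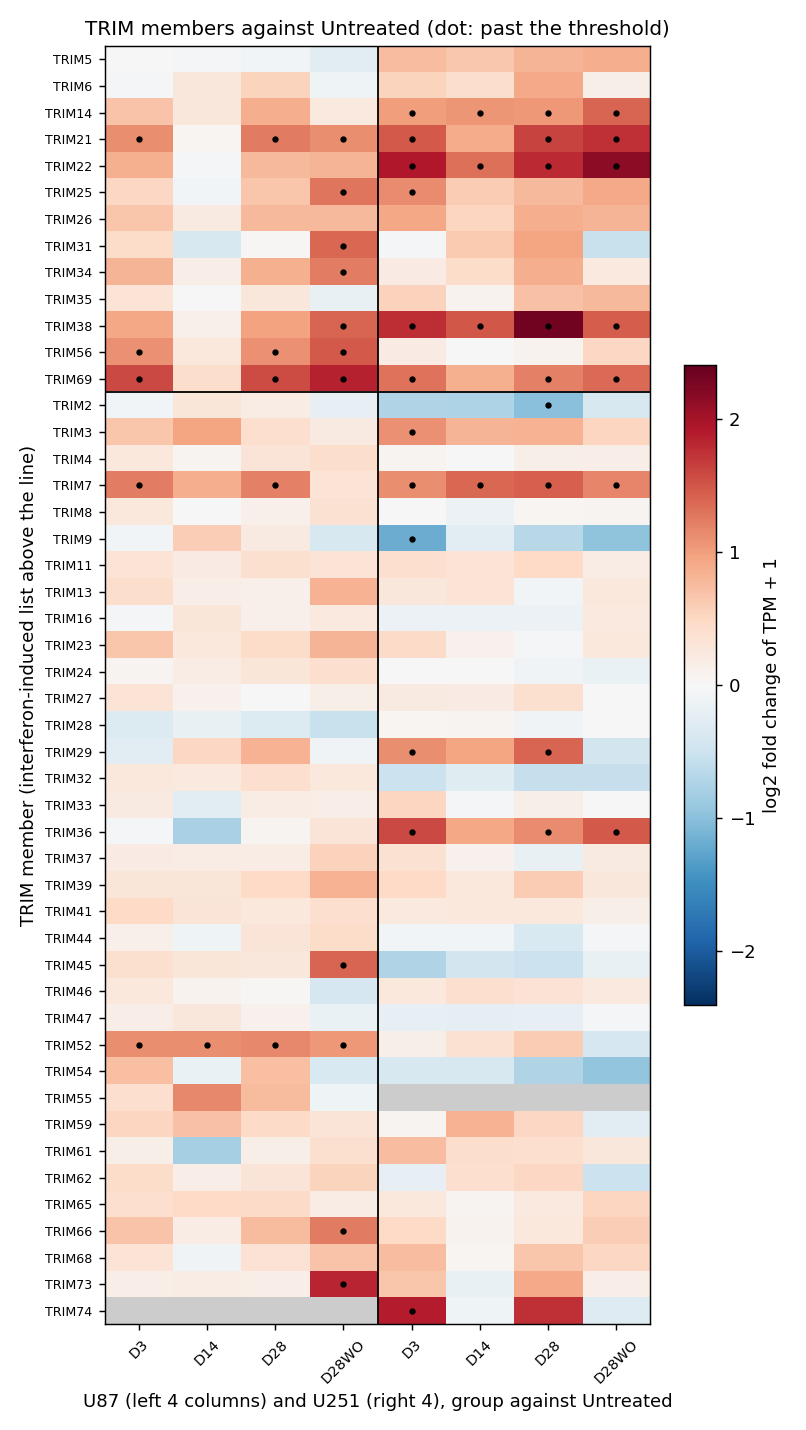
Log2 fold change of each member (rows) in each group against Untreated (columns), U87 on the left and U251 on the right, on a colour scale from -2.4 (blue) to 2.4 (red), with a dot where both limits of the threshold were passed and grey where a member was not tested. The 13 members of the interferon-induced list stand above the horizontal line and hold 7 of the 11 dots of U87 at D28WO and 6 of the 12 dots of U251 at D3.

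The interferon-induced list (TRIM5, TRIM6, TRIM14, TRIM21, TRIM22, TRIM25, TRIM26, TRIM31, TRIM34, TRIM35, TRIM38, TRIM56 and TRIM69, taken from background knowledge) was tested in full in both lines. In U87, 3, 0, 3 and 7 of its 13 members were past the threshold at D3, D14, D28 and D28WO, all higher, where 5.85%, 1.89%, 6.77% and 12.8% of all genes were. In U251 the numbers were 6, 3, 5 and 5, all higher, beside 9.72%, 4.72%, 11.9% and 4.07%. The list's median fold changes were 0.68, 0.12, 0.78 and 1.12 in U87 and 0.93, 0.63, 0.90 and 0.87 in U251. After quantile normalization 1, 0, 2 and 3 members of the list passed in U87, with list medians of 0.43, -0.09, 0.57 and 0.89, and 5, 2, 4 and 5 in U251, with 0.90, 0.56, 0.79 and 0.81. Over the 34 members outside the list the medians were 0.28, 0.19, 0.29 and 0.33 in U87 and 0.24, 0.08, 0.24 and 0.10 in U251. Quantile normalization took the medians outside the list to 0.04, 0.01, 0.08 and 0.03 in U87 and 0.15, 0.01, 0.09 and 0.10 in U251, and size factors took that of U251 at D14 to -0.01. The U87 list median at D14 was -0.04 with size factors.

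TRIM69, a RING and SPRY member with antiviral activity (chr15:44728988-44767829, plus strand), had the largest rise of the family at D3 in U87. Its levels in U87 were 49.8, 37.3 and 29.2 TPM in Untreated cells, 118 and 114 TPM at D3, 48.7 and 53.9 TPM at D14, 114, 109.6 and 118 TPM at D28 and 137, 145 and 134 TPM at D28WO. The D3, D28 and D28WO libraries were all above the Untreated ones, and 1 of the 2 D14 libraries fell inside the Untreated range. Against Untreated it rose at D3 (1.59 ± 0.16, adjusted p = 5.86e-05), D28 (1.56 ± 0.14, adjusted p = 1.82e-05) and D28WO (1.84 ± 0.14, adjusted p = 2.5e-06), and the D14 value was 0.43 ± 0.16 (adjusted p = 0.14). In U251 its levels were 73.4, 76.7 and 65.7 TPM, 169, 179.6 and 185 TPM, 124, 136 and 129.7 TPM, 166, 167 and 171 TPM and 179.8, 196 and 182 TPM in the same order. No treated library overlapped Untreated there, and D3, D28 and D28WO passed the threshold with 1.30, 1.22 and 1.36 while D14 reached 0.85 ± 0.06 (adjusted p = 7.42e-07).

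TRIM21, the cytosolic antibody receptor (chr11:4384897-4393702, minus strand), rose in both lines at D3, D28 and D28WO. In U87 it was at 38.6, 38.7 and 32 TPM untreated, 79.8 and 79.6 TPM at D3, 40.5 and 35.1 TPM at D14, 97.9, 76 and 90.5 TPM at D28 and 77.2, 80.3 and 82 TPM at D28WO. The D14 values overlapped Untreated and the other treated values did not. Fold changes in U87 were 1.11 ± 0.12 (adjusted p = 9.98e-05), 0.05, 1.25 ± 0.11 (adjusted p = 1.05e-05) and 1.12 ± 0.11 (adjusted p = 1.14e-05) at D3, D14, D28 and D28WO. The U87 calls at D3 and D28WO fell short of the fold limit under both other scalings, at 0.92 and 0.90 by quantiles and 0.93 and 0.89 by size factors. In U251 the levels were 28.1, 23.3 and 24 TPM untreated, 65, 75.5 and 74 TPM at D3, 55.8, 43.3 and 44.1 TPM at D14, 72.5, 82.1 and 84 TPM at D28 and 88, 88.8 and 85.1 TPM at D28WO, with no overlap between Untreated and any treated group. The fold changes were 1.47, 0.89, 1.63 and 1.76.

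TRIM22, an interferon-induced antiviral ligase (chr11:5689610-5737089, plus strand), is the second most abundant member of both lines by the mean over all libraries used. In Untreated U251 cells it was below TRIM2 and TRIM8, among others. Its U251 levels were 48.7, 50.5 and 50.4 TPM untreated, 181, 203 and 190.4 TPM at D3, 141, 123 and 118 TPM at D14, 178, 169 and 182 TPM at D28 and 212, 216 and 245 TPM at D28WO, and it rose in all 4 comparisons, by 1.92 ± 0.07 (adjusted p = 1.95e-10), 1.33 ± 0.07 (adjusted p = 2.83e-08), 1.80 ± 0.07 (adjusted p = 3.47e-10) and 2.14 ± 0.07 (adjusted p = 6.65e-11). In U87 it was at 106, 111 and 119.9 TPM untreated, 203 and 202 TPM at D3, 109.5 and 108 TPM at D14, 185, 195 and 199 TPM at D28 and 198, 205 and 193 TPM at D28WO. There the fold changes at D3, D28 and D28WO were 0.85, 0.78 and 0.82, each with an adjusted p of at most 7.55e-06 but short of the fold limit. TRIM22 overlaps its opposite-strand neighbour TRIM5, and whether counting used strand is not given in the sources used here, so reads of the 2 genes may be mixed. TRIM5, the capsid-binding restriction factor, was at 43.8, 35.1 and 33.9 TPM in Untreated U251 cells and 64.5, 74.3 and 69.6 TPM at D28WO, with 0.74 at D3, 0.65 at D14, 0.82 at D28, 0.87 at D28WO and an adjusted p of at most 0.00201. In U87 its fold changes were 0.01, -0.04, -0.06 and -0.28, none with an adjusted p under 0.05.

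TRIM38, a regulator of innate signalling (chr6:25962802-25991231, plus strand), was low in Untreated cells and rose in U251 in all 4 comparisons. Its U251 levels were 2.65, 2.25 and 2.06 TPM untreated, 9.81, 10.6 and 10.6 TPM at D3, 8.1, 8.46 and 8.33 TPM at D14, 16.3, 15.5 and 14.6 TPM at D28 and 8.1, 8.59 and 7.46 TPM at D28WO. All treated libraries lay above the Untreated ones, and D28 lay above the rest. Fold changes were 1.78 ± 0.13 (adjusted p = 1.33e-07), 1.49 ± 0.13 (adjusted p = 3.31e-06), 2.31 ± 0.13 (adjusted p = 8.47e-09) and 1.45 ± 0.13 (adjusted p = 1.6e-06). In U87 the levels were 9.93, 10 and 8.01 TPM untreated, 18.4 and 18.6 TPM at D3, 10.1 and 10.3 TPM at D14, 19.4, 18.8 and 19.3 TPM at D28 and 27.7, 25.4 and 25.4 TPM at D28WO. There D28WO was the highest group and the only one past both limits, with 1.40 ± 0.12 (adjusted p = 5.06e-06) (0.94 and short of the fold limit after quantile normalization), while D3 and D28 reached 0.92 and 0.97.

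TRIM25, the ligase linked to the RNA sensor RIG-I (chr17:56836387-56914080, minus strand), was highest at different times in the lines. In U87 it was at 77.6, 81.8 and 61.7 TPM untreated, 116 and 91.7 TPM at D3, 70.7 and 68.4 TPM at D14, 119, 123 and 110.1 TPM at D28 and 191, 186 and 165 TPM at D28WO. Only D28WO passed the threshold, with 1.29 ± 0.11 (adjusted p = 6.88e-06). In U251 it was at 81.3, 70.2 and 79.8 TPM untreated, 175, 159 and 174 TPM at D3, 111, 118 and 126 TPM at D14, 151, 126 and 125 TPM at D28 and 151, 125 and 165 TPM at D28WO, and only D3 passed, with 1.13 ± 0.10 (adjusted p = 1.16e-06).

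TRIM56, which acts in STING signalling, and TRIM14, an adaptor at MAVS that lacks a RING domain, were each past the threshold in 1 line. TRIM56 in U87 was at 37.5, 43.5 and 36 TPM untreated, 87 and 82.2 TPM at D3, 46.6 and 46.2 TPM at D14, 77.8, 85.4 and 91.9 TPM at D28 and 110.2, 110.3 and 107 TPM at D28WO, with rises of 1.10, 1.11 and 1.47 ± 0.09 (adjusted p = 2.83e-07) at D3, D28 and D28WO. Those at D3 and D28 fell short of the fold limit under both other scalings (0.92 to 0.94). In U251 it began at 71, 71.4 and 64.5 TPM, and its fold changes were 0.19, -0.02, 0.09 and 0.49 ± 0.08 (adjusted p = 0.000375). TRIM14 in U251 was at 33.9, 34.3 and 28.3 TPM untreated, 64.4, 66.2 and 65.7 TPM at D3, 65.1, 73.1 and 66.8 TPM at D14, 65.2, 71.2 and 64.1 TPM at D28 and 80.3, 81.7 and 97.6 TPM at D28WO, rising by 1.01, 1.07, 1.04 and 1.40 ± 0.09 (adjusted p = 5.91e-08). Only the D28WO rise held the fold limit under both other scalings, and the rest came to 0.91 to 0.98. In U87 it reached 0.68 and 0.88 at D3 and D28, and 0.27 and 0.23 at D14 and D28WO. The annotation places it across NANS on the opposite strand, whose mean was 117 TPM in U87 and 111 TPM in U251. Whether these members differ between the lines was not tested, because the 2 tables were normalized separately.

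TRIM34, a close relative of TRIM5, was past the threshold only at D28WO in U87, where it was at 51, 46.8 and 54.3 TPM against 23.5, 21.5 and 18.7 TPM in Untreated cells (1.22 ± 0.14, adjusted p = 4.5e-05), and under the other scalings it came to 0.89 (quantiles) and 0.999 (size factors), short of the fold limit. TRIM26, which lies in the HLA region, had an adjusted p under 0.05 in both lines at D3, D28 and D28WO without passing the fold limit: 0.67, 0.77 and 0.78 in U87 and 0.93, 0.87 and 0.81 in U251. TRIM35 had fold changes of 0.56, 0.70 and 0.79 in U251 at those times, with an adjusted p of at most 0.00641, and in U87 its adjusted p was at least 0.22 in all 4 comparisons. TRIM6, which builds free ubiquitin chains in interferon signalling, had an adjusted p under 0.05 only at D28 in U251 (0.90). TRIM31, a ligase of MAVS, was at 6.5, 7.83 and 3.12 TPM in Untreated U87 cells and at 12.2, 18.5 and 17.9 TPM at D28WO, a rise of 1.38 ± 0.41 (adjusted p = 0.0173) that missed the adjusted p limit when Untreated replicate 3, D28WO replicate 2 or D28WO replicate 3 was left out (log2 fold change 1.06 to 1.30) and after quantile normalization (0.85).

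**Figure D3:**
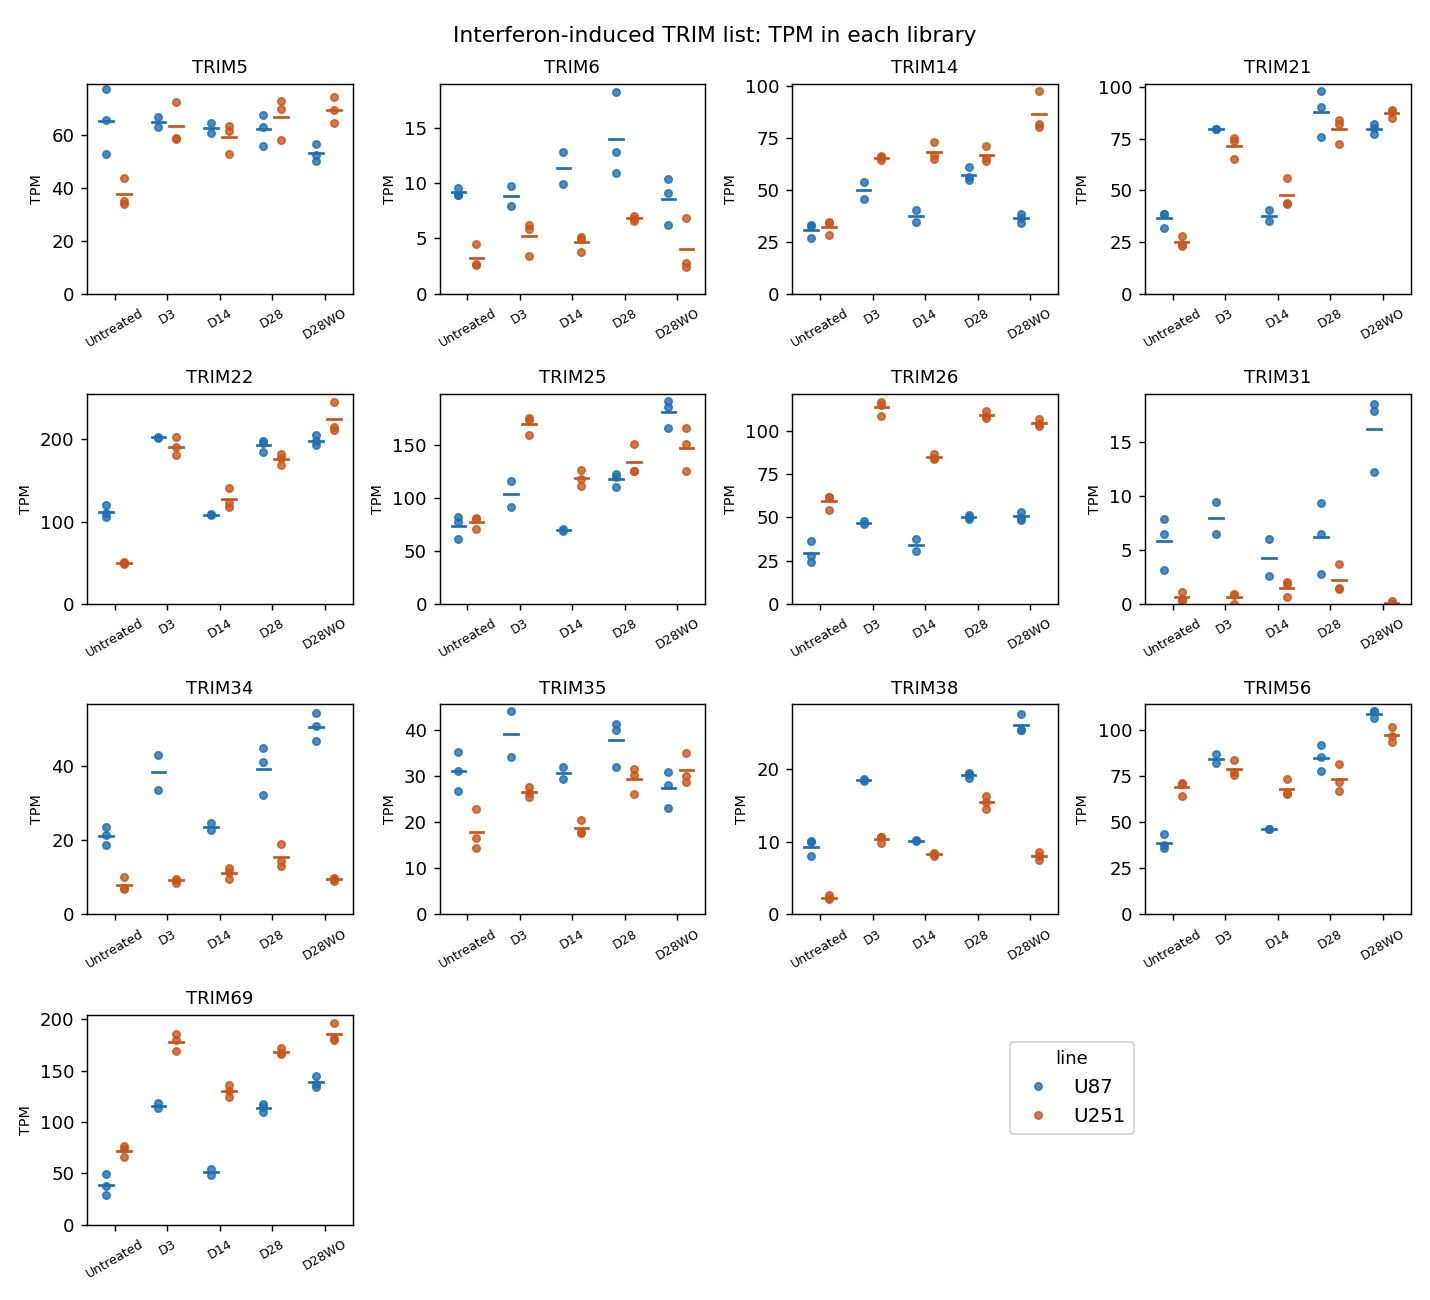
TPM (vertical axes, each from 0) of the 13 members of the interferon-induced list in each library of the 5 groups, U87 in blue and U251 in orange, with a short line at each group mean. In U87, TRIM21, TRIM22, TRIM38, TRIM56 and TRIM69 stood near their Untreated level at D14 and above it at D3, D28 and D28WO, while in U251 the D14 libraries of TRIM21, TRIM22, TRIM38 and TRIM69 stood above Untreated.

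A run of 7 members lies on chromosome 11, at chr11:4384897-6474459 in GENCODE release 44 on GRCh38: TRIM21, TRIM68, TRIM6, TRIM34, TRIM5, TRIM22 and TRIM3. Of these, TRIM5, TRIM6, TRIM21, TRIM22 and TRIM34 are also on the interferon-induced list, so the run is not a separate result for them. Each of the 7 had a fold change above 0 in U251 in all 4 comparisons with Untreated. The medians were 0.74, 0.65, 0.88 and 0.52 in order of time, beside 0.13, 0.10, 0.16 and 0.02 over all genes. By the adjusted p limit 5, 4, 7 and 5 of them were higher, beside 24.9%, 13.8%, 25.9% and 14.3% of all genes. In U87, 6, 4, 6 and 5 of the 7 were above 0, with medians of 0.66, 0.05, 0.53 and 0.68, and 4, 1, 3 and 4 were higher by that limit, beside 12.4%, 4.14%, 17.2% and 28.6%. TRIM3, an NHL repeat ligase known from the brain, was the member at the far end, at 17.6, 16.4 and 16.9 TPM in Untreated U251 cells and 47, 33.9 and 32.9 TPM at D3 (1.10 ± 0.13, adjusted p = 1.84e-05, and 0.97 after quantile normalization). TRIM6 and TRIM34 are also joined by a readthrough gene on the same strand, so their reads can be split.

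The other NHL members, TRIM2 and TRIM32, had fold changes below 0 in U251. TRIM2, a ligase that acts on neurofilament light chain, was at 117, 125 and 119 TPM untreated, 74.3, 71.6 and 71.5 TPM at D3, 70.5, 76.2 and 68.5 TPM at D14, 64.4, 56.6 and 57 TPM at D28 and 88.3, 84.2 and 103 TPM at D28WO. All treated libraries were below Untreated, and D28 passed both limits with -1.01 ± 0.08 (adjusted p = 2.14e-07). In U87 it was at 38, 32.4 and 35.4 TPM untreated and 39.5, 44.7 and 35.8 TPM at D28, and the groups overlapped (0.17 ± 0.12, adjusted p = 0.314). TRIM32, a ligase mutated in a form of limb-girdle muscular dystrophy, had fold changes of -0.52, -0.28, -0.55 and -0.55 in U251, with an adjusted p of 0.013, 0.21, 0.0101 and 0.0131.

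Of 3 members that join a COS box, which binds microtubules, to fibronectin type III and SPRY domains (TRIM9, TRIM36 and TRIM46), TRIM9 fell and TRIM36 rose in U251. TRIM9, a brain ligase of the netrin pathway, was at 68.5, 59.8 and 54.6 TPM untreated, 25.5, 28.5 and 23.9 TPM at D3, 60.8, 44.2 and 48 TPM at D14, 37.1, 37.6 and 38.9 TPM at D28 and 33.7, 26.9 and 31.7 TPM at D28WO. It fell at D3, with a log2 fold change of -1.20 ± 0.12 (adjusted p = 4e-06), and was the 1 member past the threshold downward there. TRIM36 went the other way, from 3.7, 3.55 and 2.78 TPM untreated to 12.7, 9.58 and 14.3 TPM at D3, 6.33, 6.1 and 9.57 TPM at D14, 14.9, 5.01 and 7.87 TPM at D28 and 11.4, 8.22 and 14.1 TPM at D28WO, with rises of 1.59 ± 0.31 (adjusted p = 0.000941), 1.13 ± 0.31 (adjusted p = 0.00983) and 1.47 ± 0.31 (adjusted p = 0.00261) and 0.92 at D14. After quantile normalization the D28 rise was lost (0.66). In U87 TRIM36 was at 13.1, 17 and 21 TPM untreated and its fold changes were -0.03, -0.79, 0.06 and 0.31. TRIM46 passed the adjusted p limit in no comparison with Untreated in either line.

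Members of the nuclear PHD and bromodomain group (TRIM24, TRIM28, TRIM33 and TRIM66) passed the threshold against Untreated in 1 case, TRIM66 in U87. TRIM28, the corepressor of KRAB zinc finger proteins and the most abundant member, was at 550.0, 609.6 and 708 TPM in Untreated U87 cells, 442, 487 and 559.9 TPM at D28 and 423, 398 and 457 TPM at D28WO. Its fold change was -0.54 ± 0.10 (adjusted p = 0.00118) at D28WO and -0.33 ± 0.10 (adjusted p = 0.0358) at D28, short of the fold limit. In U251 the group means ran from 476 to 531 TPM and the adjusted p was at least 0.311 in the 4 comparisons. TRIM66, which binds the chromatin protein HP1, rose at D28WO in U87 from 6.89, 9.16 and 7.1 TPM to 20, 20.1 and 18.9 TPM (1.25 ± 0.20, adjusted p = 0.000376), short of the fold limit after quantile normalization (0.76). TRIM24, a nuclear receptor coregulator, and TRIM33, a regulator of SMAD signalling, were past the threshold nowhere, and against Untreated only TRIM24 at D28WO in U87 had an adjusted p under 0.05 (0.40).

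TRIM7, a SPRY ligase that binds glycogenin (chr5:181193924-181205293, minus strand), rose in all 4 comparisons of U251 and at D3 and D28 of U87. Its U251 levels were 7.63, 4.84 and 7.42 TPM untreated, 19.1, 13.1 and 14.4 TPM at D3, 17.5, 18.1 and 19.9 TPM at D14, 22.3, 18 and 17.7 TPM at D28 and 18.6, 13.3 and 16.4 TPM at D28WO, and its fold changes 1.12, 1.38, 1.43 ± 0.18 (adjusted p = 2.91e-05) and 1.17. After quantile normalization D3 fell short of the fold limit (0.87). In U87 it went from 5.13, 2.29 and 1.65 TPM to 6.15 and 9.86 TPM at D3 and 7.7, 7.99 and 7.57 TPM at D28, with 1.23 ± 0.34 (adjusted p = 0.029) and 1.22 ± 0.30 (adjusted p = 0.0137). The U87 call at D3 was lost when Untreated replicate 2 or 3 or either D3 library was left out (log2 fold change 0.92 to 1.53), and that at D28 without Untreated replicate 3 (0.96), and both were lost after quantile normalization (0.72 and 0.71). An antisense gene, TRIM7-AS2, overlaps it at 28.7 TPM in U87 and 18.9 TPM in U251.

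TRIM52, which has an unusually acidic RING domain and lies beside TRIM7 and TRIM41 on chromosome 5, was the 1 member past the threshold at all 4 times in U87, and at none of them after quantile normalization or with median-ratio size factors. It was at 17.3, 21.6 and 15.7 TPM untreated, 44 and 36.4 TPM at D3, 36.3 and 45 TPM at D14, 44, 50.8 and 31.8 TPM at D28 and 37.3, 34.8 and 43.3 TPM at D28WO, with no overlap between Untreated and any treated group. The fold changes were 1.11 ± 0.20 (adjusted p = 0.00369), 1.12 ± 0.20 (adjusted p = 0.0133), 1.16 ± 0.18 (adjusted p = 0.000946) and 1.05 ± 0.18 (adjusted p = 0.000636). Leaving out D3 replicate 2 took the D3 call below the adjusted p limit (0.98), and leaving out D14 replicate 2 or 3 did so at D14 (0.97 to 1.27). Under the other scalings its fold changes were 0.68 to 0.98. In U251 its level was 22.9, 24.4 and 24.2 TPM untreated, 36.4, 38.3 and 35.7 TPM at D28 and 17.7, 16.8 and 19.2 TPM at D28WO, so D28 lay above Untreated and D28WO below it.

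TRIM45, a filamin-domain member, and TRIM73, one of a set of near-identical chromosome 7 copies, rose in U87 only at D28WO among the 4 comparisons with Untreated. TRIM45 was at 12.5, 19.6 and 11.8 TPM untreated, 13.3, 19.8 and 19.9 TPM at D28 and 40.4, 39.8 and 37 TPM at D28WO (1.39 ± 0.22, adjusted p = 0.00036, and 0.995 after quantile normalization). In U251 it was lower at D3, with 37.7, 31.3 and 32.1 TPM against 55.7, 52.8 and 60.3 TPM (-0.73 ± 0.11, adjusted p = 0.000153). TRIM73 was at 1.45, 4.54 and 2.96 TPM in Untreated U87 cells and 11.8, 14.8 and 11.1 TPM at D28WO (1.84 ± 0.39, adjusted p = 0.00259). TRIM74, its near copy, was at 1.9, 0 and 1.93 TPM in Untreated U251 cells and 5.51, 3.99 and 12.3 TPM at D3 (1.89 ± 0.70, adjusted p = 0.045), a call lost when any of 5 of the 6 libraries was left out (all but D3 replicate 2, log2 fold change 1.38 to 2.15). Reads of TRIM73 and TRIM74 can be divided between them, and TRIM73 overlaps NSUN5P1 on the same strand, so both are uncertain.

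TRIM29, a member without a RING domain, was near the lower limit in U251. Its U251 levels were 1.94, 0 and 0 TPM untreated, 2.55, 2.42 and 1.5 TPM at D3, 3.5, 2.57 and 2.33 TPM at D28 and 0, 0.171 and 0 TPM at D28WO. D3 and D28 passed the threshold with 1.12 ± 0.36 (adjusted p = 0.0239) and 1.39 ± 0.36 (adjusted p = 0.0073), the D3 libraries overlapped Untreated, and the D3 call was lost when Untreated replicate 2 or 3 or D3 replicate 1 or 2 was left out (0.86 to 1.06) and after quantile normalization (0.94). TRIM8, at 107 ± 6.69 TPM (SD, n = 3) in Untreated U251 cells and known for acting on SOCS1, had an adjusted p of at least 0.137 in U251 and a fold change of 0.36 ± 0.08 (adjusted p = 0.00266) at D28WO in U87. TRIM47 was slightly lower in U251 at D3, D14 and D28 (-0.21, -0.24 and -0.20, adjusted p at most 0.0365).

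Neighbouring times were compared next, to ask when the members moved. Between D3 and D14, TRIM21 and TRIM69 fell in U87, with -1.06 ± 0.13 (adjusted p = 0.000554) and -1.16 ± 0.17 (adjusted p = 0.00212), which is 2 of 47 members against 2.05% of genes lower and 0 against 0.576% higher. Without D14 replicate 3 only 1 of them passed. Both rose again from D14 to D28, by 1.20 ± 0.12 (adjusted p = 9.13e-05) and 1.13 ± 0.16 (adjusted p = 0.00131) (2 of 47 higher against 1.78%, 0 lower against 0.332%). TRIM22, TRIM56 and TRIM38 followed the same course short of the fold limit, with -0.89, -0.85 and -0.80 from D3 to D14 and 0.82, 0.86 and 0.86 from D14 to D28, each with an adjusted p of at most 0.00787. In U251 no member passed from D3 to D14 by limma, but 2 did without D3 replicate 2 or D14 replicate 1 and 1 without D14 replicate 2 (against 3.19% of genes higher and 3.29% lower), with an adjusted p under 0.05 for 12 members, 2 higher (4.26%, against 12.8% of genes) and 10 lower (21.3%, against 12.6%). Those lower included TRIM22 (-0.59), TRIM21 (-0.58), TRIM25 (-0.51) and TRIM69 (-0.45), and TRIM9 was higher by 0.94 ± 0.12 (adjusted p = 9.75e-05). From D14 to D28 in U251 TRIM73 rose (1.09 ± 0.26, adjusted p = 0.00962), 1 of 47 against 4.23%, and none fell, against 1.6%. Without D14 replicate 2, 0 members passed in this comparison, and without D14 replicate 1, 2 did.

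Cells 14 days after IFN-γ was withdrawn were set against cells kept in it to day 28. In U87, TRIM73, TRIM31 and TRIM45 were higher at D28WO, by 1.69 ± 0.39 (adjusted p = 0.011), 1.35 ± 0.41 (adjusted p = 0.0395) and 1.12 ± 0.22 (adjusted p = 0.00444), which is 3 of 47 (6.38%) against 3.11% of genes. TRIM54, a muscle RING finger protein, was lower, with -1.09 ± 0.31 (adjusted p = 0.0316), 1 of 47 (2.13%) against 2.42%. Leaving out 1 library ended the TRIM31 call in 5 of 6 cases (all but D28 replicate 1, log2 fold change 0.94 to 1.53) and the TRIM54 call in 5 of 6 (all but D28WO replicate 1, -1.18 to -0.82), and 2 of the 4 members passed without D28 replicate 1 or 2 or D28WO replicate 2 or 3. TRIM45 fell short of the fold limit without D28 replicate 1, where its other D28 libraries were at 19.8 and 19.9 TPM. In U251, 5 of 47 members (10.6%) were lower at D28WO, against 8.14% of genes, and none was higher, against 1.12%. They were TRIM74 (-2.06 ± 0.70, adjusted p = 0.0412), TRIM29 (-1.84 ± 0.36, adjusted p = 0.00184), TRIM31 (-1.48 ± 0.37, adjusted p = 0.00782), TRIM62 (-1.01 ± 0.16, adjusted p = 0.000325) and TRIM52 (-1.001 ± 0.09, adjusted p = 3.57e-06). The TRIM74 call was lost when D28 replicate 1 or 2 or D28WO replicate 1 or 3 was left out (-2.13 to -1.66), and only TRIM29 and TRIM31 passed after quantile normalization. The number past the threshold was 2 without D28 replicate 2 and 3 without D28 replicate 1, D28WO replicate 1 or D28WO replicate 2, and TRIM62 and TRIM52 lay at the fold limit. The TRIM74 libraries overlapped between D28 and D28WO, and those of TRIM52 did not, with 36.4, 38.3 and 35.7 TPM at D28 and 17.7, 16.8 and 19.2 TPM at D28WO.

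Of the 13 members of the interferon-induced list, none fell past the threshold from D28 to D28WO in U87, and TRIM31 alone did in U251. With the adjusted p limit alone, 4 were higher and 1 lower in U87, where 9.9% and 8.44% of all genes were. In U251, 3 were higher and 3 lower, beside 10.3% and 18.8% of genes. TRIM69, TRIM22, TRIM21 and TRIM56 had values at D28WO against D28 of 0.28, 0.04, -0.13 and 0.36 in U87 and of 0.14, 0.35, 0.14 and 0.41 in U251. TRIM38 was lower at D28WO than at D28 in U251 (-0.86 ± 0.13, adjusted p = 0.000231) and higher in U87 (0.43 ± 0.12, adjusted p = 0.0287). TRIM14 went the opposite way, lower in U87 (-0.64 ± 0.11, adjusted p = 0.0024) and higher in U251 (0.36 ± 0.09, adjusted p = 0.00804). The list's median from D28 to D28WO was 0.04 in U87 and 0.09 in U251, beside 0.04 and -0.12 over all genes. IRF1 was at 527, 545 and 457 TPM at D28WO in U87 and 609, 663 and 588 TPM in U251, and at 539, 457 and 443 TPM and 577, 559 and 674 TPM at D28.

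**Figure D4:**
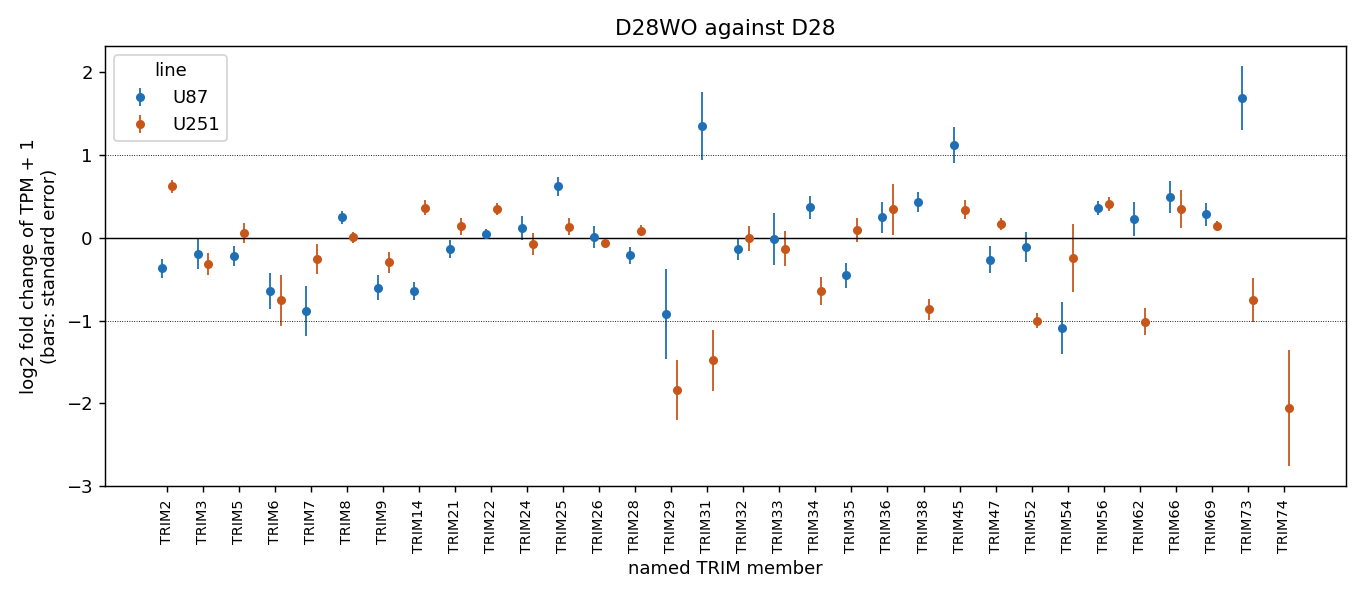
Log2 fold change of D28WO against D28 (vertical axis) with its standard error for each of the 32 named members (horizontal axis), U87 in blue and U251 in orange, with dotted lines at 1 and -1. TRIM73, TRIM31 and TRIM45 lie above 1 and TRIM54 lies below -1 in U87, and TRIM29, TRIM31, TRIM52, TRIM62 and TRIM74 lie below -1 in U251.

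Both lines passed the threshold together for TRIM7, TRIM21 and TRIM69 at D3 and again at D28, for TRIM21, TRIM38 and TRIM69 at D28WO, and for no member at D14. After quantile normalization only TRIM69 did so at D3 and D28WO, and TRIM21 and TRIM69 at D28. With median-ratio size factors TRIM7 and TRIM69 did at D3, TRIM7, TRIM21 and TRIM69 at D28, and TRIM38 and TRIM69 at D28WO. Across the 46 members tested in both lines, Pearson's r between the lines' fold changes from Untreated was highest for D28 (0.50) and lowest for D14 (0.07), with 0.39 for D3 and 0.32 for D28WO. These values describe members and not replicates, and within a line all 4 comparisons share the Untreated libraries. Neither the counts passing in both lines nor r was computed over all genes. Whether this likeness is particular to the family was therefore not tested.

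**Figure D5:**
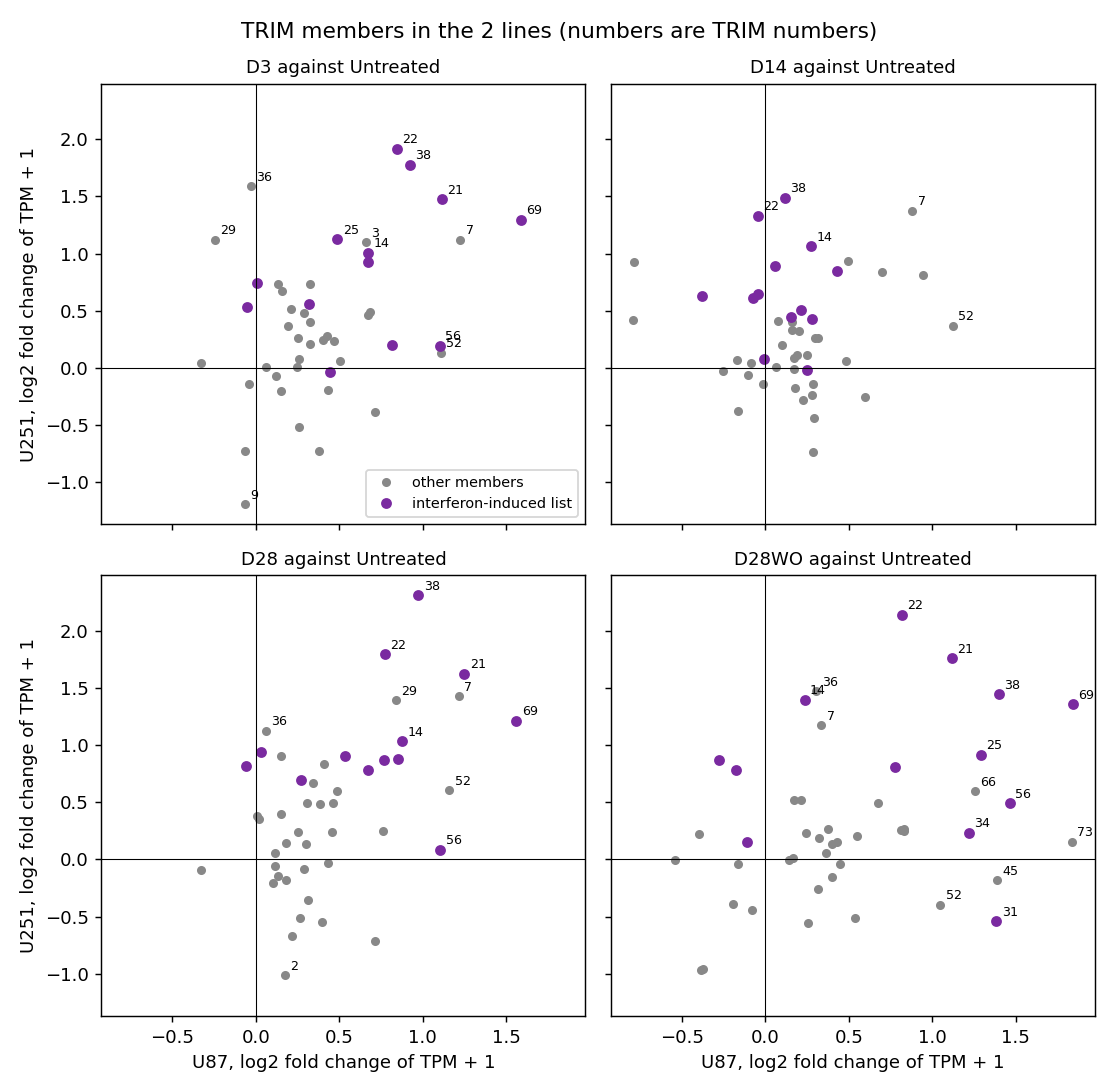
Log2 fold change against Untreated in U87 (horizontal axes) and U251 (vertical axes) for the 46 members tested in both lines, 1 panel for each of D3, D14, D28 and D28WO, with the interferon-induced list in purple and TRIM numbers beside members past the threshold in at least 1 line. At D14, TRIM7, TRIM14, TRIM22 and TRIM38 were past the threshold in U251 only and TRIM52 in U87 only.

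Genes that work with the family but lie outside the symbol rule were read from a list of 20: relatives (PML, MEFV, MID1, MID2, TRIML1, TRIML2 and RNF135), the sensors and adaptors RIGI, IFIH1, MAVS, STING1 and CGAS, and the E2 enzymes UBE2D1, UBE2D2, UBE2D3, UBE2E1, UBE2N, UBE2V1, UBE2V2 and UBE2L6. In U87, 17 were tested, and 2, 1, 4 and 2 rose at D3, D14, D28 and D28WO (against 5.85%, 1.89%, 6.77% and 12.8% of all genes). In U251, 19 were tested, and 3, 2, 3 and 3 rose (against 9.72%, 4.72%, 11.9% and 4.07%), with none falling in either line. IFIH1, the sensor MDA5, rose by 2.01, 2.14 and 2.08 in U87 at D3, D28 and D28WO and by 2.16, 1.63, 2.30 and 2.37 in U251 at all 4 times. RIGI, the sensor that TRIM25 acts on, was at 17.2, 19.2 and 18.1 TPM in Untreated U251 cells and 98.3, 119 and 106 TPM at D28WO (2.50 ± 0.07, adjusted p = 1.52e-11), and in U87 it passed at D28WO (1.23 ± 0.16, adjusted p = 0.000115). PML, the founder of PML bodies and itself TRIM19, rose in U251 at D3, D28 and D28WO by 1.03, 1.35 and 1.28. TRIML2 rose in U87 at D3, D14 and D28 (1.58, 1.54 and 2.36) and was lower at D28WO than at D28, with -1.61 ± 0.22 (adjusted p = 0.000685). MEFV and STING1 rose in U87 at D28, by 1.08 ± 0.29 (adjusted p = 0.021) and 1.01 ± 0.27 (adjusted p = 0.0193), MEFV at a mean of 1.79 ± 0.433 TPM. MID1 was lower at D28WO than at D28 in U87, with -1.22 ± 0.18 (adjusted p = 0.00104). None of the 8 E2 enzymes passed the threshold against Untreated, and UBE2L6, the E2 of ISG15, came nearest with 0.92 ± 0.07 (adjusted p = 3.4e-07) at D28WO in U251.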

How the data were processed

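RNA sequencing of U87 and U251 cells was analysed from 2 gene tables whose values the authors deposited as TPM, 1 table a line. Per the labels and the study's methods, paired-end reads were processed with FastQC, Trim Galore, STAR, featureCounts and edgeR on GRCh38. How TPM was computed and whether counting used strand are not given in the sources used here. Each library sums to the same total, so TPM keeps no depth and no counting error could be given. The study's methods state a minimum number of reads a sample, but the depth of each library is unknown here. For U87, 2 columns with the same name were not used.

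The test was limma 3.58.1 (R 4.3.3) on log2(TPM + 1), with a trend on mean level and each line's 5 groups fitted jointly, for genes averaging 0.5 TPM or more in that line. Benjamini-Hochberg adjustment ran over all genes tested, and a call needed a log2 fold change beyond 1 in either direction with an adjusted p below 0.05. The fit was tested on simulated data. No test set one line against the other. The alternatives were another pseudocount, 2 filters, 2 normalizations, a replicate block, a fit of only the 2 compared groups, the adjusted p alone and leaving out each library. The fit without the D14 libraries was added after seeing the data. The members named were all of the interferon-induced and PHD-bromodomain lists, the 3 largest rises and falls a comparison with Untreated with an adjusted p under 0.05, the 3 most abundant a line and every member past the threshold. The members and lists were chosen with earlier results of these data known. Gene positions are from GENCODE release 44, and promoters from RefSeq on GRCh38.p14. Protein sequences were not used here.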

Additional observations from a re-analysis of the deposited data

Results flagged for a closer look

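Named TRIM members were singled out where every library of the first group lay above the second in one line and below it in the other, with an adjusted p under 0.05 by limma in at least 1 line. There were 16 such pairs of values. Over all 46 members tested in both lines there were 19 of 322 pairs (5.9%), beside 4.98% of the 143311 pairs of all genes, so the members' share lay near that of all genes. The difference between the lines was not tested for any pair, because the 2 tables were normalized separately. All values are log2 fold changes of TPM + 1, U87 first.

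From D28 to D28WO, TRIM31 was 1.35 and -1.48, TRIM73 was 1.69 and -0.75, TRIM38 was 0.43 and -0.86, and TRIM34 was 0.37 and -0.64. In the opposite direction, TRIM14 was -0.64 and 0.36 and TRIM2 was -0.37 and 0.62. At D28WO against Untreated, TRIM31 was 1.38 and -0.54, TRIM45 was 1.39 and -0.18, TRIM52 was 1.05 and -0.39, TRIM24 was 0.40 and -0.16, and TRIM32 was 0.25 and -0.55. TRIM32 was also 0.26 and -0.52 at D3 and 0.39 and -0.55 at D28. At D14 against Untreated, TRIM2 was 0.29 and -0.74 and TRIM36 was -0.79 and 0.92. From D3 to D14, TRIM62 was -0.28 and 0.60. The ligase TRIM31 had the widest gap, and its U87 calls are among those that 1 left-out library can end.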

How the results depend on the processing

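Numbers of members past the threshold are given in the order D3, D14, D28 and D28WO against Untreated, D14 against D3, D28 against D14, and D28WO against D28. With the adjusted p alone they were 14, 2, 18, 25, 6, 10 and 13 in U87 and 24, 15, 30, 23, 12, 12 and 19 in U251. Quantile normalization gave 1, 0, 2 and 4 in U87 against Untreated, 7 at D3 in U251 and 2 from D28 to D28WO in U251. Median-ratio size factors gave 2, 0 and 3 at D3, D14 and D28 in U87 and 3 from D28 to D28WO in U251. Only the 2 compared groups in the fit gave 0 at D14 and 2 from D28 to D28WO in U87, no filter gave 2 in the latter, and a mean of at least 1 TPM gave 1 from D3 to D14 in U251. The cause was not tested. Leaving out 1 library gave 3 to 5, 0 to 2, 4 to 6, 9 to 12, 1 to 2, 2 to 2 and 2 to 3 in U87, with 3 at D3 without D3 replicate 2, and 8 to 11, 3 to 6, 8 to 10, 6 to 8, 0 to 2, 0 to 2 and 2 to 5 in U251. Of 68 single calls, 58 kept an adjusted p under 0.05 whichever library was left out. Losses of the fold limit were not counted in this and can end further calls. At D3 in U251, 8 members passed both limits without D3 replicate 1, against 12 with all libraries.

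With a replicate block the numbers were 5, 1, 5, 11, 2, 2 and 3 in U87 and 11, 4, 9, 7, 0, 1 and 4 in U251. Same-numbered libraries did not deviate together, with correlations of -0.058 to 0.047 over 23 pairs in U87 and -0.037 to 0.048 over 30 in U251. With so few libraries a group this cannot exclude a pairing. Among the 177 values of named members with an adjusted p under 0.05, none changed sign under any alternative. The limit was missed by 33 with only the compared groups in the fit, 22 with no filter, 21 after quantile normalization, 11 with median-ratio size factors, 9 with the replicate block, 5 with a pseudocount of 0.1, 5 with the D14 libraries left out (of the comparisons that do not use them) and 0 with a mean of at least 1 TPM. With 1 library left out, 171 values missed it and 856 did not. The 14 medians over the members moved by more than the spread between replicates in 11 cases with median-ratio size factors, 10 after quantile normalization and 34 with 1 library left out (45 did not move so far).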

Other observations

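Of the 48 TRIM members, 26 (54.2%) were past the threshold in none of the 7 comparisons of either line, as were 65.9% of the 26112 genes tested. Among them are the 4 members TRIM5, TRIM16, TRIM26 and TRIM44 whose promoters hold the ISRE pattern, of which TRIM16 and TRIM44 are described here and were named after their values were seen. TRIM44 had log2 fold changes of 0.31 at D28 and 0.44 at D28WO against Untreated in U87 (adjusted p by limma 0.0208 and 0.00131) and -0.36 at D28 in U251 (0.0109). TRIM16 had 0.24 at D28WO in U87 (0.0461) and 0.23 at D28WO in U251 (0.0442). The U251 D28WO libraries of TRIM16 overlapped the Untreated ones.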
